A study of Mus musculus with 32 samples.

Results

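Gene expression was compared between 2 neighbouring gates of mouse bone marrow, the common myeloid progenitor (CMP) and the granulocyte-monocyte progenitor (GMP), within each of 8 mice. The 8 GMP libraries were set against the 8 CMP libraries, so the comparison used 16 of the 32 RNA sequencing libraries of the study, chosen by their sample labels. The other 16 came from the LSK gate (stem cells and multipotent progenitors) and the MEP gate (megakaryocyte-erythroid progenitors) of the same animals. All 8 mice carried 2 floxed alleles of Cxadr, the gene of the coxsackievirus and adenovirus receptor, a junctional adhesion molecule. The 4 control mice were Mx1-Cre- Cxadr fl/fl and the 4 Cxadr-ko mice Mx1-Cre+ Cxadr fl/fl. The Mx1 promoter that drives Cre is induced by interferon and acts in many cell types, so the deletion is not limited to progenitors. The sources used here do not give the induction, the age and strain of the mice, or the surface stains behind the gates. Each mouse gave 1 CMP and 1 GMP library, and the mice are separate animals, so differences are stated within mice with n = 8, or n = 4 per genotype.

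In the classical scheme of myelopoiesis the CMP gate holds cells that can give rise to erythrocytes, megakaryocytes, granulocytes and monocytes, and the GMP gate holds their progeny restricted to granulocytes and monocytes. Both are lineage-negative and Kit-positive, and in the usual sort GMP cells are told from CMP cells by higher Fc gamma receptor at a similar CD34 level. Passage to the GMP stage is known for the C/EBP and PU.1 transcription factors and for the synthesis of the primary (azurophil) granule enzymes of neutrophils.

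Each value was a count of reads per gene, scaled by the authors with 1 size factor for each library (normalized counts), and 1 read was worth 0.879 to 1.28 of them. The 16 libraries held 8313300 to 12346005 gene-assigned reads, 8744480 to 11358982 in CMP and 8313300 to 12346005 in GMP. The first principal component, with 20.2% of the variance, separated the 8 CMP from the 8 GMP libraries. On the second, with 12.4%, the GMP library of Cxadr-ko mouse 4 stood at -101 and the other 15 between -23.5 and 27.2. Immunoglobulin gene segments made up 1.15% of the reads of Cxadr-ko mouse 2 in GMP, against 0.0273% to 0.287% in the other 15 libraries. In the CMP library of Cxadr-ko mouse 2 the 20 secondary granule and mature neutrophil genes summed to 124604 normalized counts, against 4402 to 27656 in the other CMP libraries. The test that 3398 genes passed in all 8 mice was passed by 3095 without Cxadr-ko mouse 2, by 3544 without Cxadr-ko mouse 4 and by 3347 without both.

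Over the 8 mice, 16909 of 55487 genes were tested (those with a normalized count of 10 or more in 4 or more libraries), and 3398 of them (20.1%) differed between the gates at a limma adjusted p below 0.05 (Benjamini-Hochberg over all genes tested). Of these, 1614 were higher in GMP (9.55% of genes tested) and 1784 lower (10.6%). These shares are the background against which every gene list below is read, as is the median log2 difference over all genes tested, -0.02. A gene below 10 normalized counts throughout a gate passed the filter only through the other gate, so its direction was largely set by the filter. Differences are GMP minus CMP on the log2(normalized count + 1) scale, which understates the change of genes with low counts. Most were small: 294 of the higher genes exceeded 2-fold and 93 exceeded 4-fold, as did 461 and 157 of the lower genes. The sign was the same in all 8 mice for 1104 of the higher genes (68.4%) and for 1111 of the lower ones (62.3%). Over all genes tested it was the same for 2493 (14.7%), and the called genes were chosen on these same differences. The share of all genes tested whose gates did not overlap is not given, so a lack of overlap below only describes single genes. Of the genes lower in GMP 88.5% were protein coding, and of those higher 79.7%. The counts rested partly on mouse 1 of each genotype, without which 940 genes were higher and 991 lower.

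**Figure D1:**
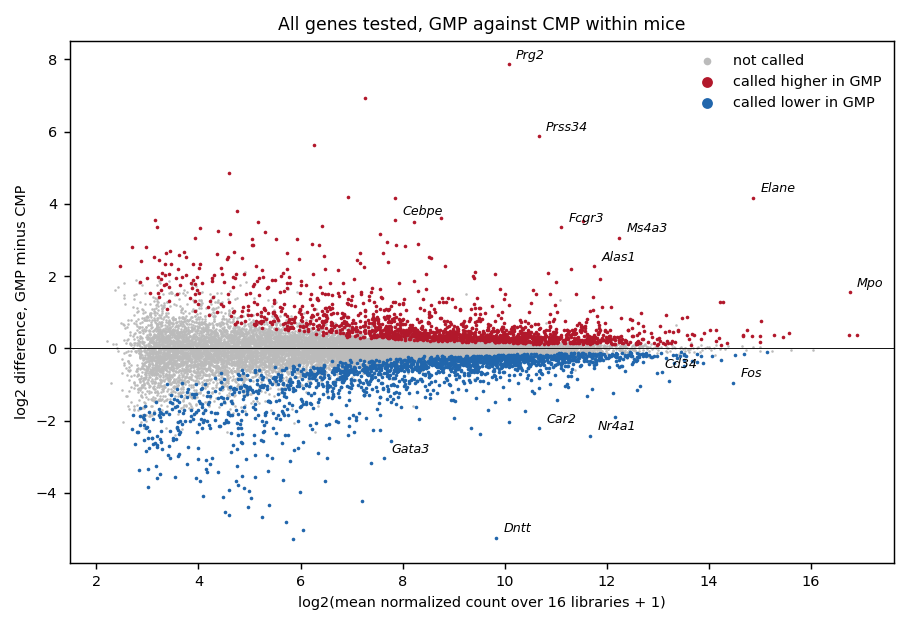
Each point is 1 of the 16909 genes tested, with the mean normalized count over the 16 libraries on the x axis (log2 of the value + 1) and the log2 difference GMP minus CMP within mice on the y axis. Red points are the 1614 genes called higher in GMP, blue points the 1784 called lower and grey points the rest. Mpo and Elane lie far to the right above 0, Prg2 has the largest difference (7.86), and Dntt lies lowest among the labelled genes.

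Set beside the other pairs of gates, CMP and GMP were of intermediate distance. The same test gave 6967 genes for CMP against LSK (40.4%), 8681 for GMP against LSK (50.1%), 6077 for MEP against LSK (34.9%) and 2489 for MEP against GMP (14.5%). MEP and CMP libraries differed in 129 genes (0.757%). The 6 pairs share libraries, so only counts are given.

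The Fc receptor genes by which the GMP gate is told apart were higher in GMP, and Cd34 RNA did not follow the usual stain. Fcgr3 (chr1:171051174-171064935, mm10), which encodes the Fc gamma receptor III chain recognised by the usual GMP stain, had a lowest, median and highest value of 278, 379 and 825 normalized counts in CMP and 3037, 3915 and 5261 in GMP. The 8 GMP libraries all lay above the 8 CMP libraries, and within mice the log2 difference was 3.36 ± 0.16 (SE, n = 8; limma adjusted p = 1.3e-07). Fcgr2b, the inhibitory Fc receptor bound by the same antibodies, stood at 364, 466 and 544 in CMP and 1034, 1467 and 1668 in GMP (log2 difference 1.65 ± 0.08 (SE), limma adjusted p = 1.5e-07). Cd34 RNA was lower in every GMP library, 5196, 6135 and 7004 against 8876, 10082 and 11579 in CMP (log2 difference -0.69 ± 0.04 (SE), limma adjusted p = 2.5e-07). In the MEP gate, usually sorted as CD34-negative, the mean Cd34 level was 8638 normalized counts, between those of GMP (6197) and CMP (10004), and in LSK it was 11249. Kit, the stem cell factor receptor of all these cells, was 1599 ± 168 (SD, n = 8) in CMP and 1335 ± 148 in GMP, with overlapping ranges (log2 difference -0.26 ± 0.06 (SE), limma adjusted p = 0.0081, or 0.077 without mouse 1 of both genotypes). Flt3, a receptor of multipotent and lymphoid progenitors, fell from 1579 ± 300.4 to 591 ± 63.0 (SD, n = 8; log2 difference -1.40, limma adjusted p = 1.1e-06), and Eng, a TGF-beta co-receptor, from 394 ± 78.6 to 206 ± 59.0 (log2 difference -0.96, limma adjusted p = 0.0008). Of 16 gate surface genes 4 were higher and 8 lower in GMP.

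Primary granule genes were higher in GMP. Of 17 tested members 14 were higher in GMP and 0 lower, with a median log2 difference of 1.18, and the same 14 to 0 split was found in all 20 alternative settings. Elane (chr10:79886247-79888215, mm10), neutrophil elastase, had a lowest, median and highest value of 2027, 2852 and 5522 in CMP and 45863, 50186 and 79897 in GMP. No CMP library came near the GMP range, and the log2 difference was 4.17 ± 0.15 (SE, n = 8; limma adjusted p = 3.6e-08). Mpo (chr11:87793581-87804413), myeloperoxidase, was already abundant in CMP, at 43928, 57208 and 64617, and reached 129144, 157780.0 and 218677 in GMP (log2 difference 1.56 ± 0.07 (SE), limma adjusted p = 1.3e-07). Prtn3, proteinase 3, and Ctsg, cathepsin G, rose by similar amounts, Prtn3 from 11396 ± 1438 to 27979 ± 3697 and Ctsg from 11048 ± 991 to 27093 ± 2739 (SD, n = 8; log2 differences 1.3 and 1.29). Both were named after their values had been seen, and neither had overlapping gates. Elane and Prtn3 are neighbours on chromosome 10, and their log2 differences were 4.17 and 1.3.

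Other members of the list are given next. Ms4a3, a membrane protein of granulocyte-monocyte progenitors, went from 1075 ± 426 to 8575 ± 1196 (SD, n = 8; log2 difference 3.07, limma adjusted p = 1.3e-07). Igsf6, an immunoglobulin superfamily receptor of myeloid cells, had a log2 difference of 2.19 and Hp, haptoglobin, of 2.08, without overlap between the gates in either. Plac8 rose from 24502 ± 2406 to 41559 ± 2233 (log2 difference 0.77). Lyz2, lysozyme, did not pass the test, with 3529 ± 2044 in CMP and 3515 ± 872 in GMP (log2 difference 0.10, limma adjusted p = 0.56).

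The starts of 4 of these genes and of Fcgr3 are shown to let the letters before these starts be compared, and were picked after motif matches had been seen, among genes without overlap between the gates. Each line is the sequence directly before the first annotated coding transcript start inside the gene's promoter window (at most 120 bases), 5′ to 3′ on the gene's strand, from the RefSeq promoter windows on GRCm38.p6. They lie at chr10:79886127-79886246 (Elane, plus strand), chr10:79879494-79879613 (Prtn3, plus), chr11:87793534-87793580 (Mpo, plus), chr14:56102575-56102694 (Ctsg, minus) and chr1:171059404-171059523 (Fcgr3, minus). The Fcgr3 stretch lies inside the annotated gene, where annotated coding transcripts start, and not at the gene's outer 5′ end. Capitals mark a match to GAGGAAGT, the core that PU.1 prefers, or on either strand to TTGCNNAA, a C/EBP half-site pair.
Elane: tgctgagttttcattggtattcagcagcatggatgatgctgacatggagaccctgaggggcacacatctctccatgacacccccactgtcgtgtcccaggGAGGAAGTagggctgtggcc
Prtn3: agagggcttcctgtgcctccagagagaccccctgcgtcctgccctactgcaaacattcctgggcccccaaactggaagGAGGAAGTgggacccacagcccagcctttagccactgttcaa
Mpo: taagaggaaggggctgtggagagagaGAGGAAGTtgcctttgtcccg
Ctsg: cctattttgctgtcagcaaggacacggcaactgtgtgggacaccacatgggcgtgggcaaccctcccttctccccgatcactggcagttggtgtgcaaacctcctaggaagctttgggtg
Fcgr3: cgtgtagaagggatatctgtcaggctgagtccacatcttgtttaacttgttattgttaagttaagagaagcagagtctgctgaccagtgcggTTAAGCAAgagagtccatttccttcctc

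In Elane 12 bases lie between GAGGAAGT and the transcript start, in Mpo 13 and in Prtn3 34, and in Fcgr3 20 bases follow the TTGCNNAA match, which is on the reverse strand. The Ctsg stretch holds none of the motifs searched. Over the 250 bases before a start (both strands) GAGGAAGT was found in 2.44% of 32851 windows. Counted per gene it was found in 3.37% of the 10152 genes tested that have a window, in 3.16% of the 1044 higher in GMP, in 4.1% of the 1269 lower ones and in 4 of 14 primary granule genes. TTGCNNAA was found in 9.56% of windows and, per gene, in 9.36% of genes tested, in 11.4% of higher and 8.9% of lower genes, and in 2 of the 14. The third motif searched, AGATAA, which is bound by the factor family of Gata1, was found in 9.99% of windows and, per gene, in 7.75% of genes tested, in 7.85% of higher and 9.14% of lower genes, and in 0 of the 14. No printed stretch held more than 1 match, so no 2 matches overlapped there. The motifs were also chosen after matches had been seen, so the shares are a description of these letters and say nothing about binding.

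**Figure D2:**
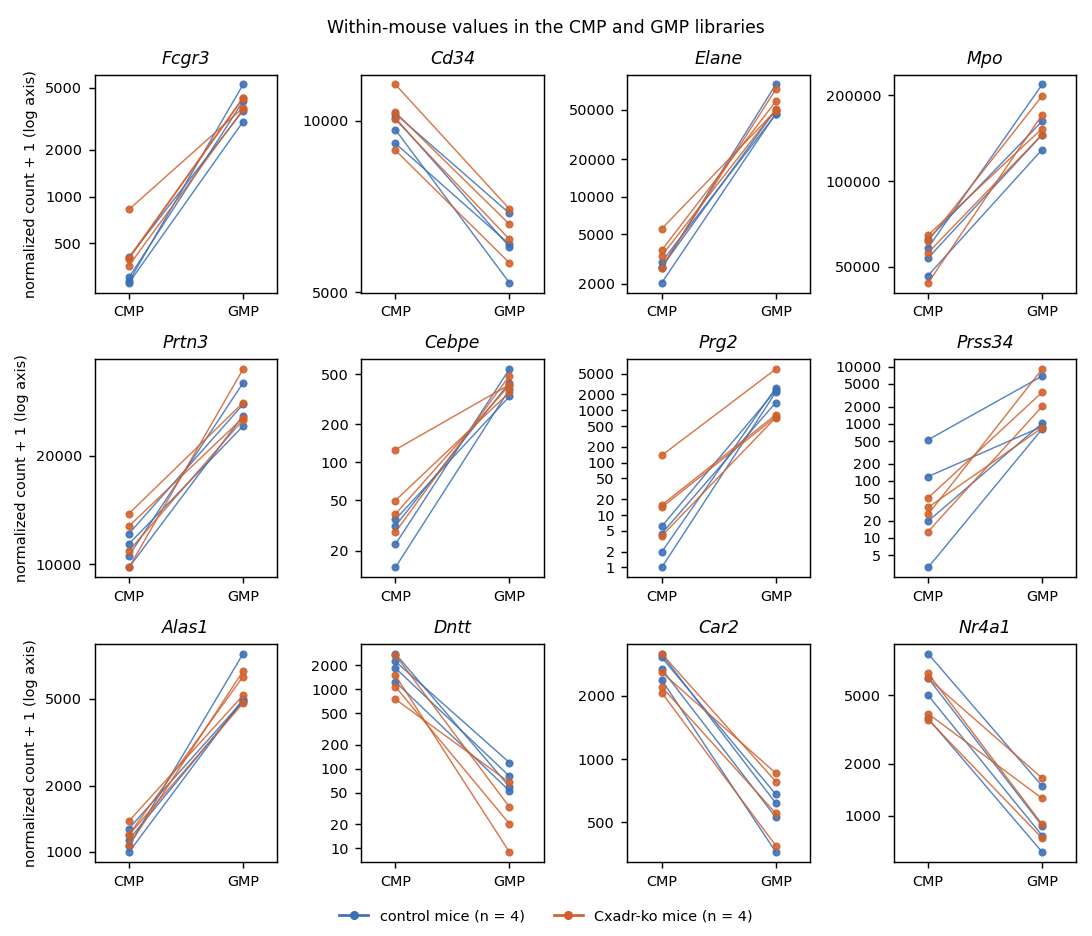
Normalized counts + 1 (log axis, a separate scale in each panel) of 12 genes in the CMP and GMP library of each mouse, joined by a line per mouse. Blue marks the 4 control mice and orange the 4 Cxadr-ko mice. All lines of Fcgr3, Elane, Mpo, Prtn3, Cebpe, Prg2, Prss34 and Alas1 go up, and all lines of Cd34, Dntt, Car2 and Nr4a1 go down.

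The transcription factors of the granulocyte-monocyte branch did not move as 1 group. Of 18 tested, 5 were higher and 3 lower in GMP, and their median log2 difference of -0.01 changed sign in 8 of 20 settings. The lower ones were Klf4, Klf2 and Jun, and when mice were not matched 4 were higher and 1 lower. The C/EBP members rose. Cebpe, the factor of late granulocyte differentiation, had a lowest, median and highest value of 13.7, 32.4 and 125 in CMP and 333, 411 and 548 in GMP, with no overlap (log2 difference 3.55 ± 0.28 (SE, n = 8), limma adjusted p = 5.7e-06). Cebpa, needed to form GMP cells, went from 261 ± 50.4 to 472 ± 77.1 (log2 difference 0.86, limma adjusted p = 0.00033) and Cebpd from 79.3 ± 22.4 to 151 ± 26.6 (log2 difference 0.95, limma adjusted p = 0.0011). Gfi1, a repressor that favours the neutrophil over the monocyte branch, rose from 56.3 ± 20.5 to 207 ± 54.6 (SD, n = 8; log2 difference 1.91, limma adjusted p = 5.7e-05). Klf4, a factor of the monocyte branch, fell from 531 ± 107 to 381 ± 115 (log2 difference -0.51, limma adjusted p = 0.0039). Irf8, which drives monocyte and dendritic cell fates, was 2926 ± 773 in CMP and 2722 ± 702 in GMP (log2 difference -0.10, 3 mice higher and 5 lower, limma adjusted p = 0.27). Runx1, a general haematopoietic factor, had a log2 difference of -0.11 (limma adjusted p = 0.25).

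Monocyte genes were higher in GMP for 12 of 18 tested and lower for 1, Klf4, with a median log2 difference of 0.51. Without mouse 1 of both genotypes 9 were higher and 1 lower. Ly6c2, the monocyte surface antigen Ly-6C, stood at 236, 402 and 790.5 in CMP and at 3176, 4272 and 10492 in GMP (log2 difference 3.54 ± 0.19 (SE, n = 8), limma adjusted p = 2.1e-07). Its neighbour Ly6c1 rose alike (66.4 ± 35.9 to 794 ± 403, log2 difference 3.61), but the 2 genes are nearly identical in sequence and their reads may be shared. Cd14, a co-receptor for bacterial lipopolysaccharide, rose from 113 ± 69.6 to 374 ± 144 (log2 difference 1.82, limma adjusted p = 3.3e-06) and Csf1r, the macrophage colony-stimulating factor receptor, from 323 ± 49.4 to 479 ± 102 (log2 difference 0.56, limma adjusted p = 0.0034). Vcam1, an adhesion receptor also of macrophages, was low in both gates, 10.01 ± 10.7 in CMP and 54.0 ± 27.8 in GMP (log2 difference 2.87, limma adjusted p = 0.0027). The summed level of the 22 monocyte genes ran from 11197 to 20441 in CMP and from 20366 to 41713 in GMP. Its 2 highest GMP sums were those of mouse 1 of each genotype, 41713 in control and 38963 in Cxadr-ko, against 20366 to 26929 in the other 6.

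Genes of secondary granules and mature neutrophils, which are made after the GMP stage, did not rise as a list. Of 20 tested 3 were higher and 3 lower, with a median log2 difference of -0.35, 0.21 over control mice and -0.66 over Cxadr-ko mice. The higher ones were Ltb4r1, the leukotriene B4 receptor (147 ± 50.8 to 375 ± 82.3, log2 difference 1.38, limma adjusted p = 0.00055), Anxa1, annexin A1 (log2 difference 0.71, limma adjusted p = 0.001), and Cybb, the gp91 chain of the phagocyte oxidase (log2 difference 1.28, limma adjusted p = 0.012, 0.082 when mice were not matched and 0.056 without mouse 1 of both genotypes). Padi4, the enzyme that citrullinates histones in neutrophils, fell from 516 ± 158 to 326 ± 91.6 (log2 difference -0.66, limma adjusted p = 0.0004). Camp, the cathelicidin of secondary granules, ranged from 115 to 12431 in CMP and from 40.8 to 6032 in GMP, 8 of 8 mice being lower in GMP (log2 difference -1.04, limma adjusted p = 0.0071 within mice and 0.45 when mice were not matched). Ltf, lactoferrin, had a log2 difference of -0.85 (limma adjusted p = 0.091). The list summed to 4402 to 124604 normalized counts in CMP and 9227 to 68475 in GMP, highest in both gates in Cxadr-ko mouse 2, and without this mouse 3 members were higher and 2 lower.

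Of 16 dendritic cell and MHC class II genes 2 were higher and 4 lower, with wide spread between mice. Without mouse 1 of both genotypes 0 were higher and 4 lower. H2-Ab1, an MHC class II chain, was 3513 ± 1680.1 in CMP and 6359 ± 2865 in GMP (SD, n = 8; log2 difference 0.84, limma adjusted p = 0.017, or 0.056 without mouse 1 of both genotypes), and Cd74, the invariant chain, 8027 ± 3922 and 12943 ± 6439 (log2 difference 0.65, limma adjusted p = 0.068). Tcf4, the E protein of plasmacytoid dendritic cells, fell in every mouse, from 2088 ± 197 to 1187 ± 161 (log2 difference -0.82, limma adjusted p = 3.2e-06). Xcr1, a receptor of conventional dendritic cells, stood at 45.3 ± 18.3 in CMP and 111 ± 66.8 in GMP (log2 difference 1.09, limma adjusted p = 0.054).

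The largest rise of all genes tested was in an eosinophil gene, and mast cell and basophil genes were also higher. Prg2 (chr2:84980461-84983632, mm10), the major basic protein of eosinophil granules, had 0.979, 5.07, 3.44 and 0 normalized counts in the CMP libraries of control mice 1 to 4 and 2669, 2388, 1399 and 2219 in their GMP libraries. In Cxadr-ko mice 1 to 4 it had 136, 2.98, 13.04 and 14.5 in CMP and 6098, 725, 746 and 822 in GMP. The ranges of the gates lay far apart, with mouse 1 of the Cxadr-ko genotype highest in both (log2 difference 7.86 ± 0.59 (SE, n = 8), limma adjusted p = 3.6e-06). Prg3, its neighbour on chromosome 2 (chr2:84988215-84993886) and a related protein, rose from 2.11 ± 3.88 to 303 ± 192, and Epx, eosinophil peroxidase, from 1.3 ± 2.15 to 151 ± 128 (SD, n = 8; log2 differences 6.94 and 5.64). The fitted differences of these genes depend on the added 1, since several CMP libraries were at 0. Of 10 eosinophil genes 5 were tested, and 3 were higher and 0 lower, while Il5ra and Siglecf were not called. Prg3 and Epx passed the filter through their GMP libraries, so they could hardly come out lower. When 8 or more libraries had to reach the threshold, 4 were tested, 2 higher and 0 lower. The 10 eosinophil genes of the list summed to 73.4 to 310.4 normalized counts in CMP and to 1165 to 7118 in GMP.

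Of 13 mast cell and basophil genes 9 were higher and 1 lower, with a median log2 difference of 1.61 that lay between 1.36 and 1.87 in each of the 8 mice. Prss34, a basophil serine protease, ranged from 2.03 over a median of 29.0 to 525 in CMP and from 810.3 over 1519 to 9134 in GMP (log2 difference 5.87 ± 0.55 (SE, n = 8), limma adjusted p = 2e-05). Csrp3, a LIM protein best known from muscle and in the list as a basophil gene, rose from 149 ± 53.3 to 756 ± 318 (log2 difference 2.29, limma adjusted p = 4.6e-07). Gzmb, granzyme B, rose from 19.6 ± 28.3 to 99.7 ± 73.8 with 7 of 8 mice higher (log2 difference 3.04, limma adjusted p = 0.011), and Cd200r3, an activating receptor of basophils and mast cells, from 13.4 ± 9.0 to 54.8 ± 22.9 (log2 difference 2.28, limma adjusted p = 0.0043). Il1rl1, the interleukin-33 receptor, was 62.6 ± 18.9 in CMP and 114 ± 68.8 in GMP (log2 difference 0.67, limma adjusted p = 0.21). In bulk libraries a larger share of cells of a type and more RNA per cell cannot be told apart, and this holds for every gene described here.

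Among genes outside the lists that rose (mean of at least 100 and the same sign in 8 mice) were Chst13, a chondroitin sulfotransferase (14.4 ± 11.9 to 226 ± 85.7, log2 difference 4.2), Rnase12, a member of the ribonuclease A family (25.6 ± 15.1 to 435 ± 159, log2 difference 4.17), and Gda, guanine deaminase (57.5 ± 50.4 to 356 ± 132, log2 difference 2.94). In each of the 3 every GMP library lay above every CMP library, which their choice by large differences makes likely. Serpine2, a protease inhibitor held in the platelet list, went from 74.2 ± 27.0 to 551 ± 179 (log2 difference 2.90, limma adjusted p = 9.9e-07), against the direction of the other called platelet genes.

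**Figure D3:**
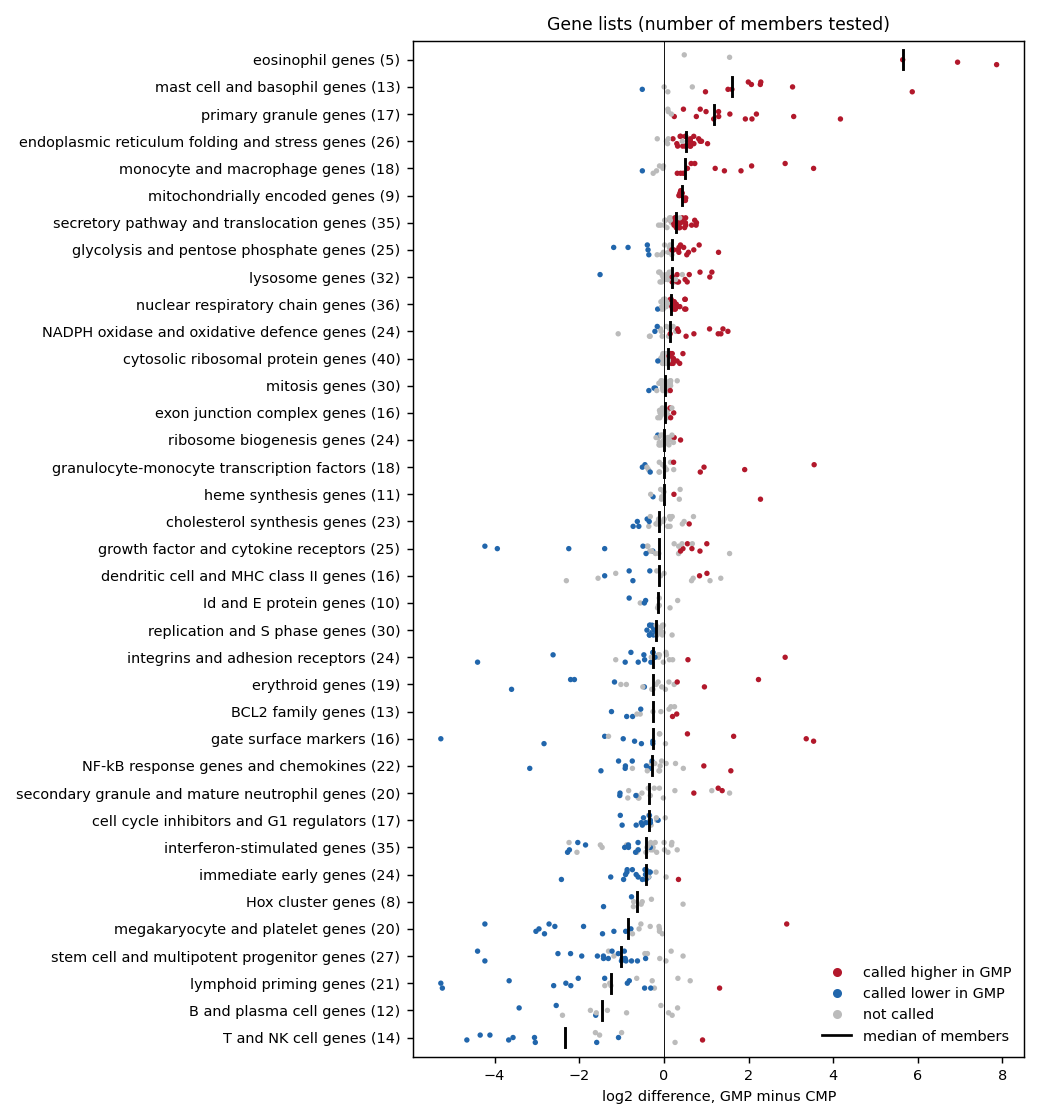
Each point is a tested member of 1 gene list, placed by its log2 difference GMP minus CMP over 8 mice, with the number of members tested in parentheses. Red members were called higher in GMP, blue lower and grey neither, and the black bar is the list's median. Eosinophil, basophil and primary granule genes lie to the right, and stem cell, lymphoid and T cell genes to the left.

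The machinery of protein secretion was raised with the granule genes. Of 26 endoplasmic reticulum folding and stress genes 21 were higher in GMP and 0 lower, with a median log2 difference of 0.51, and of 35 genes of translocation and the secretory pathway 24 were higher and 0 lower (median 0.30). Calr, the chaperone calreticulin (also in the granule list), stood at 7743, 8713 and 9899 in CMP and at 14176, 15985 and 16793 in GMP, with no overlap (log2 difference 0.86 ± 0.04 (SE, n = 8), limma adjusted p = 1.2e-07). Sdf2l1, a resident of chaperone complexes, rose from 2138 ± 322 to 4375 ± 661 (log2 difference 1.03) and Manf, a stress-induced factor of the same compartment, from 2494 ± 322 to 4625 ± 607 (log2 difference 0.89). Sec61b and Sec61g, subunits of the translocation channel, rose by 0.76 and 0.77 on the log2 scale and Ssr4, of the translocon-associated complex, by 0.73, all 3 without overlap between the gates. Medians of both lists were above 0 in each of the 8 mice, 0.42 to 0.70 and 0.22 to 0.46.

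Lysosome genes were called higher for 13 of 32 and lower for 1, Lgmn (median 0.19). Members ran from -1.51 to 1.13 (log2), and 6 of the 32 were higher without mouse 1 of both genotypes. Cd63, a membrane protein of late endosomes and granules, rose from 2407 ± 461 to 5242 ± 686 (log2 difference 1.13, limma adjusted p = 6.7e-06), Gla, alpha-galactosidase A, from 251 ± 58.6 to 526 ± 50.8 (log2 difference 1.09) and Neu1, a sialidase, from 163 ± 41.6 to 291 ± 48.4 (log2 difference 0.85). Of 24 genes of the NADPH oxidase and oxidative defence 10 were higher and 2, Cat and Prdx2, lower, with members from -1.08 to 1.51 (log2). Mgst1, a microsomal glutathione transferase, had a log2 difference of 1.51, Gsr, glutathione reductase, of 1.40 and Hvcn1, the proton channel that supports the oxidase, of 1.35 (limma adjusted p = 2e-05, 0.00019 and 5.2e-05).

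List medians in energy metabolism were small, while some single genes differed by more. All 9 tested mitochondrially encoded genes were higher in GMP (median log2 difference 0.43), but under quantile normalization 7 of them were higher and mt-Cytb, cytochrome b, was lower. mt-Nd1, a subunit of complex I, was 14776 ± 2153 in CMP and 21063 ± 3228 in GMP (SD, n = 8; log2 difference 0.51, limma adjusted p = 0.00016). The list's median within single mice ran from 0.02 in Cxadr-ko mouse 1 to 0.70 in control mouse 2. Of 36 nuclear respiratory chain genes 19 were higher and 1 lower (median 0.16), among them Cycs, cytochrome c (log2 difference 0.51, limma adjusted p = 1.1e-05), and Ndufa1, a complex I subunit (0.52, limma adjusted p = 8.1e-05). Of 25 glycolysis and pentose phosphate genes 12 were higher and 5 lower, with members from -1.19 to 1.29 (log2). Ldhb, a lactate dehydrogenase subunit, was at 1.29 and Hk3, the hexokinase of myeloid cells, at 0.71. Aldoc, Slc2a3, Pfkl and Slc2a1 were among the lower ones. In heme synthesis Alas1, the first and rate-limiting enzyme outside erythroid cells, had a lowest, median and highest value of 995, 1164 and 1381 in CMP and 4782, 5096 and 8050.4 in GMP, with no overlap (log2 difference 2.28 ± 0.10 (SE, n = 8), limma adjusted p = 1.2e-07). Of 11 heme genes 2 were higher and 1 lower, the lower being Alad, the second enzyme (log2 difference -0.26, limma adjusted p = 0.011). Of 23 cholesterol synthesis genes 1 was higher, Fdps, farnesyl diphosphate synthase (log2 difference 0.60, limma adjusted p = 0.0023), and 5 were lower, among them Srebf2, the transcription factor of the pathway (log2 difference -0.73, limma adjusted p = 0.0016).

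Genes of stem cells and multipotent progenitors were lower in GMP. Of 27 tested 0 were higher and 19 lower, with a median log2 difference of -1.003 that lay between -1.3 and -0.65 in the 8 mice. Esam, an endothelial and stem cell adhesion molecule, stood at 26.7, 53.7 and 84.3 in CMP and at 0, 1.39 and 12.8 in GMP, with no overlap (log2 difference -4.40 ± 0.54 (SE, n = 8), limma adjusted p = 0.00013). In LSK cells its mean was 398. Meis1, a homeobox factor of stem cells, fell from 3012 ± 349 to 1127 ± 192 (log2 difference -1.43, limma adjusted p = 7.6e-07), and Gfi1b, the relative of Gfi1 that acts in the megakaryocyte and erythroid branch, from 499 ± 107 to 139 ± 64.9 (log2 difference -1.94, limma adjusted p = 1.5e-05). Gfi1 and Gfi1b thus moved in opposite directions. Meis1 and Gfi1b were named after their values had been seen. Of 8 tested Hox genes 2 were lower, among them Hoxa9, which fell from 1117 ± 211 to 675 ± 201 (log2 difference -0.76, limma adjusted p = 0.00035).

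Megakaryocyte and platelet genes followed, with 1 of 20 higher (Serpine2) and 11 lower and a median log2 difference of -0.84. F2r, the thrombin receptor, fell from 372 ± 76.6 to 65.1 ± 27.5 (log2 difference -2.58, limma adjusted p = 1.7e-06), Rab27b, which serves platelet granule release, from 96.7 ± 29.2 to 18.0 ± 14.4 (-2.82, limma adjusted p = 0.00056), and Mmrn1, a platelet granule protein, from 63.6 ± 29.5 to 15.3 ± 21.4 (-2.95, limma adjusted p = 0.001).

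Erythroid genes had no common direction, with 3 of 19 higher and 5 lower (median -0.26). Car2, carbonic anhydrase 2, had a lowest, median and highest value of 2071, 2637 and 3176 in CMP and 359.8, 583 and 857 in GMP, with no overlap (log2 difference -2.20 ± 0.10 (SE, n = 8), limma adjusted p = 1.2e-07), and in LSK its mean was 10216. Cnrip1, in the list as a gene of early erythroid progenitors, fell from 114 ± 22.9 to 29.4 ± 13.1 (log2 difference -2.11). Gata1, the central erythroid factor, was 189 ± 54.7 in CMP and 167 ± 75.0 in GMP (log2 difference -0.26, 4 mice higher and 4 lower, limma adjusted p = 0.42). Klf1, which opens the later erythroid programme, was higher in GMP in 7 of 8 mice, 57.4 ± 25.9 against 118 ± 65.5 (log2 difference 0.96, limma adjusted p = 0.031, 0.13 without Cxadr-ko mice 2 and 4 and 0.06 to 0.073 without any 1 Cxadr-ko mouse). Its GMP values were 64.9, 103, 57.1 and 63.2 in control mice 1 to 4 and 102, 115, 215 and 221 in Cxadr-ko mice 1 to 4.

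Among lymphoid genes was the largest fall of all genes tested, that of Il7r. Dntt (chr19:41029275-41059525, mm10), terminal deoxynucleotidyl transferase of early lymphoid cells, had 2809.8, 2247, 1246 and 1856 normalized counts in the CMP libraries of control mice 1 to 4 and 58.4, 118, 51.6 and 79.6 in GMP. In Cxadr-ko mice 1 to 4 it had 2703, 749.9, 1081 and 1499 in CMP and 31.9, 66.1, 19.2 and 7.91 in GMP. The gates did not overlap, and the log2 difference was -5.23 ± 0.35 (SE, n = 8; limma adjusted p = 1.5e-06). Il7r, the interleukin-7 receptor of lymphoid progenitors, fell from 111 ± 54.1 to 3.17 ± 5.16 (log2 difference -5.27, limma adjusted p = 2.3e-05), Cd7 from 159 ± 102 to 17.3 ± 14.2 (-3.66, limma adjusted p = 0.0021) and Lck, the T cell kinase, from 222 ± 103 to 42.5 ± 15.6 (-2.32, limma adjusted p = 2.5e-05). Of 21 lymphoid priming genes 1 was higher and 12 lower, with a median log2 difference of -1.25.

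Of 14 tested T and NK cell genes 9 were lower and 1 higher (median -2.33). Members with few counts in GMP passed the filter through their CMP libraries, so their fall was largely set by the filter. When 8 or more libraries had to reach the threshold, 7 were tested, 4 lower and 1 higher. Tcf7, the T lineage factor TCF-1, fell from 71.5 ± 43.4 to 2.11 ± 3.12 (log2 difference -4.66, limma adjusted p = 0.00012), Trbc2, a T cell receptor constant region, from 77.8 ± 47.1 to 3.67 ± 4.09 (-4.34, limma adjusted p = 6.5e-05) and Gata3, a factor of T cells and stem cells, from 348 ± 92.7 to 46.6 ± 22.8 (-3.04, limma adjusted p = 2.4e-05). Nkg7, a granule membrane protein of cytotoxic cells, rose from 6328 ± 971 to 11871 ± 1329.6 (log2 difference 0.91, limma adjusted p = 8.7e-07). Of 12 B and plasma cell genes 3 were lower, among them Cd22 (31.4 ± 14.2 to 2.62 ± 2.73, log2 difference -3.42) and Cd79a (47.8 ± 40.4 to 17.6 ± 23.9, -1.61). The B and plasma cell list summed to 891 to 11425 normalized counts in CMP and to 888 to 56325 in GMP, the highest being the GMP library of Cxadr-ko mouse 2 that was rich in immunoglobulin.

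Receptors for growth factors and cytokines went in both directions, with 6 of 25 higher and 7 lower in GMP. Ifngr1, a chain of the interferon gamma receptor, rose from 1359 ± 146 to 2785 ± 591 (log2 difference 1.01, limma adjusted p = 2.8e-06) and Csf2ra, the GM-CSF receptor chain, from 512 ± 127 to 927 ± 218 (0.85, limma adjusted p = 0.0023). Il1r1, the interleukin-1 receptor, fell from 302 ± 54.4 to 71.6 ± 41.9 (-2.25, limma adjusted p = 0.00014) and Il18r1, the interleukin-18 receptor, from 56.2 ± 21.1 to 5.45 ± 9.66 (-3.93, limma adjusted p = 0.00011). Of 24 integrins and adhesion receptors 12 were lower and 2 higher, and 7 were lower without mouse 1 of both genotypes. F11r, the junctional adhesion molecule A, fell from 55.7 ± 13.4 to 10.3 ± 7.06 (log2 difference -2.62, limma adjusted p = 0.00033), and Icam1 from 316 ± 46.0 to 169.6 ± 39.6 (-0.91, limma adjusted p = 0.00011). Genes outside the lists that fell were picked with a mean of at least 100 and the same sign in 8 mice. Of these, Vldlr, the very low density lipoprotein receptor, had a log2 difference of -2.39 and Myl10, a myosin light chain, of -2.38. Ctla2a, a cysteine protease inhibitor, was at -2.20 and Il10, the anti-inflammatory cytokine, at -2.14.

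Immediate early genes, which cells transcribe within minutes of a signal or of handling, were lower in GMP, 17 of 24 against 1 higher (median log2 difference -0.43). Nr4a1, an orphan nuclear receptor, stood at 3609, 5617 and 8675 in CMP and at 617, 884 and 1654 in GMP, with no overlap (log2 difference -2.42 ± 0.13 (SE, n = 8), limma adjusted p = 2e-07), and its LSK mean was 17948. Nr4a2 fell from 529 ± 206 to 212 ± 46.3 (log2 difference -1.26, limma adjusted p = 0.00083). Fos, the AP-1 subunit, ranged from 19289.5 to 46291 in CMP and from 9060.1 to 22381 in GMP, overlapping between mice but lower in GMP in all 8 (log2 difference -0.95 ± 0.08 (SE), limma adjusted p = 5.8e-06). Zfp36, which destabilises cytokine messages, fell from 12232 ± 3506 to 6862 ± 2909 (-0.91, limma adjusted p = 3.7e-05), and Btg2, an antiproliferative gene, from 3025 ± 886 to 1990.2 ± 723 (-0.65, limma adjusted p = 0.00098, or 0.058 when mice were not matched). The levels varied among mice, and 6 of the 24 were lower when mice were not matched and 11 without mouse 1 of both genotypes. The list's sum in GMP was lowest in mouse 1 of each genotype, 37520 in control and 38566 in Cxadr-ko, against 56469 to 85261 in the other 6.

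Chemokine and interferon-stimulated genes pointed the same way. Of 22 NF-kB response genes and chemokines 9 were lower and 2 higher, and 5 were lower without mouse 1 of both genotypes. Ccl4 fell from 1330.3 ± 411 to 462 ± 76.5 (log2 difference -1.49, limma adjusted p = 4.5e-06), Ccl3 from 1362 ± 436 to 629 ± 83.1 (-1.07, limma adjusted p = 1.7e-05) and Ccl5 from 303 ± 271 to 28.2 ± 22.9 (-3.17, limma adjusted p = 0.0015), while Il6 rose from 22.5 ± 8.44 to 77.9 ± 51.9 (1.58, limma adjusted p = 0.0014). Of 35 interferon-stimulated genes 11 were lower and 0 higher (median -0.43), and 7 were lower without mouse 1 of both genotypes. Rsad2, viperin, fell from 123 ± 76.6 to 23.8 ± 7.28 (log2 difference -2.23, limma adjusted p = 0.00021), Rtp4 from 283 ± 73.2 to 90.6 ± 62.9 (-1.85) and Ifi44 from 57.5 ± 21.5 to 21.0 ± 30.8 (-2.03). The median was below 0 in each of the 8 mice, from -0.56 to -0.20. Genes of large mean change outside these lists were Tsc22d1, a leucine zipper protein (7231 ± 1564 to 1970.3 ± 553, log2 difference -1.90), and Pde4b, a cyclic AMP phosphodiesterase (8309 ± 1328 to 3944 ± 1290.3, -1.14).

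Replication and mitosis genes differed little in size, and cell cycle inhibitors and G1 regulators by more. Of 30 replication and S phase genes 13 were lower and 0 higher (median log2 difference -0.18, and 8 lower when mice were not matched), with Mcm4 at -0.40, Mcm2 and Mcm6, further subunits of the replicative helicase, at -0.34 each and Lig1, DNA ligase 1, at -0.34. Of 30 mitosis genes 1 was higher and 3 lower (median 0.03). Among 17 cell cycle inhibitors and G1 regulators 12 were lower and 0 higher (median -0.35, 6 lower when mice were not matched and 7 without mouse 1 of both genotypes). Cdkn1a, the p21 inhibitor, fell from 2499.9 ± 472 to 1301 ± 418 (log2 difference -0.99, limma adjusted p = 0.00016) and Ccnd1, cyclin D1, from 348 ± 125 to 173 ± 63.5 (-1.03, limma adjusted p = 0.00013). Of 13 BCL2 family genes 4 were lower and 2 higher. The lower ones were, from the largest fall, Bok, Bcl2l11, Bcl2 and Mcl1, and the higher ones Bak1 and Bax. Bcl2, which protects from apoptosis, fell from 1740.4 ± 120.3 to 1050.4 ± 156 without overlap (log2 difference -0.74, limma adjusted p = 2e-05), and Mcl1, another protective member, from 2133 ± 484 to 1465 ± 376 (-0.55, limma adjusted p = 0.00036).

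Of 40 cytosolic ribosomal protein genes 14 were higher and 1 lower, with a median log2 difference of 0.09. Rps12 and Rplp2 were higher by 0.45 and 0.37 and Rpl15 lower at -0.14. The split was 10 higher and 6 lower under quantile normalization, and 4 were higher without mouse 1 of both genotypes. Ribosome biogenesis genes had 2 of 24 higher and 1 lower. Of 10 Id and E protein genes 3 were lower, Tcf4 among them. Of 16 exon junction complex genes 3 were higher and 0 lower, among them Magoh, a core subunit (log2 difference 0.23, limma adjusted p = 0.007), and Cwc22, a splicing factor needed to load the complex, had a log2 difference of -0.10 (limma adjusted p = 0.051). Cwc22 stood at 5823 to 7652 normalized counts in the CMP libraries of control mice and at 2919 to 3981 in those of Cxadr-ko mice, and the gates of each mouse lay close together.

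The 2 genotypes were fitted separately, with no library in common, to see whether they agreed. In control mice 2127 genes were called (12.6% of 16909), 990 higher (5.85%) and 1137 lower (6.72%), and in Cxadr-ko mice 644 (3.81%), 336 higher (1.99%) and 308 lower (1.82%). Both fits called 561 genes, all with the same sign, which is 26.4% of the control calls and 87.1% of the Cxadr-ko calls. Of the 2127 control calls 95.9% had the same sign in Cxadr-ko mice, and of the 644 Cxadr-ko calls 99.4% in control mice, where the share among all genes tested was 70.6%. The median size of the control calls was 0.64 (log2) in control and 0.47 in Cxadr-ko mice, and that of the Cxadr-ko calls 0.80 in control and 0.85 in Cxadr-ko mice. The median standard error was 0.17 in the control fit and 0.21 in the Cxadr-ko fit. The number of control calls fell to 1260 when mice were not matched. Without mouse 1 the calls were 950 in control and 127 in Cxadr-ko mice, and without Cxadr-ko mice 2 and 4 the other 2 Cxadr-ko mice gave 809. By the column names, mouse 1 of both genotypes is numbered apart from the other mice. Within each gate the libraries of these 2 animals had the highest correlation of any pair, 0.98 in GMP and 0.973 in CMP. The 2 fits share no library, but both rest partly on this pair, and what sets it apart was not tested.

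**Figure D4:**
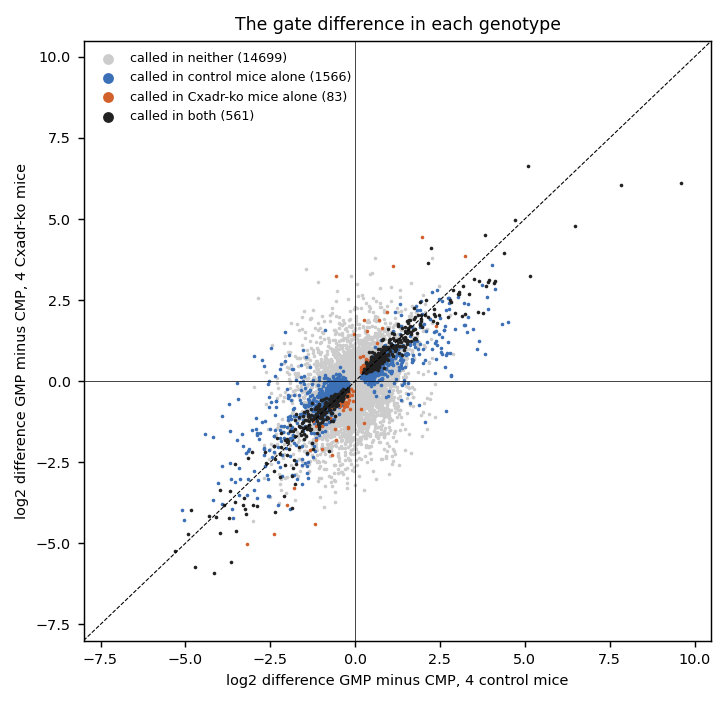
Each point is 1 of 16909 genes, with the log2 difference GMP minus CMP in 4 control mice on the x axis and in 4 Cxadr-ko mice on the y axis, and the dashed line marks equal differences. Black points were called in both fits (561), blue in control mice alone, orange in Cxadr-ko mice alone and grey in neither. The black points all lie in the 2 quadrants of equal sign.

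The values in each genotype of 5 genes described above follow, and the genes were chosen with their values known. Elane was higher in GMP by 4.39 (log2) in control and 3.95 in Cxadr-ko mice, a difference between genotypes of -0.44 (95% interval -1.08 to 0.20). Mpo was higher by 1.55 and 1.57 (difference 0.02, interval -0.31 to 0.36) and Fcgr3 by 3.64 and 3.09 (-0.55, interval -1.20 to 0.10). Cd34 had log2 differences of -0.70 and -0.68 (difference 0.02, interval -0.15 to 0.19) and Dntt of -4.72 and -5.75 (-1.02, interval -2.48 to 0.44). These intervals leave room for genotype differences of the stated size, and of these 5 genes Dntt, with few counts in GMP, had the widest.

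No gene passed the test of the genotype difference itself at a limma adjusted p below 0.05 (0 of 16909, with 784 at an unadjusted p below 0.05). edgeR on whole reads also called 0 and DESeq2 called 2, Jun (adjusted p = 0.0042) and Lcn2 (adjusted p = 0.008). Jun, an AP-1 subunit, was lower in GMP in control mice 1 to 4 by log2 differences of -0.64, -0.44, -0.51 and -0.83, and stood at -0.07, -0.22, 0.18 and -0.04 in Cxadr-ko mice 1 to 4. Lcn2, lipocalin-2 of secondary granules, was at 1.5, 1.13, 0.52 and 0.74 in the 4 control mice, and the 4 Cxadr-ko mice had -0.80, -0.54, -0.56 and 0.10. For Prg2 the differences were 10.40, 8.62, 8.30 and 11.12 in control and 5.47, 7.51, 5.73 and 5.73 in Cxadr-ko mice (genotype difference -3.50, limma adjusted p = 0.956), where the control CMP libraries held 0 to 5.07 normalized counts. Xiap, an apoptosis inhibitor, had a genotype difference of -1.03 (limma adjusted p = 0.956). Jun and Lcn2 were also among the 5 genes of lowest limma p, with an adjusted p of 0.956.

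**Figure D5:**
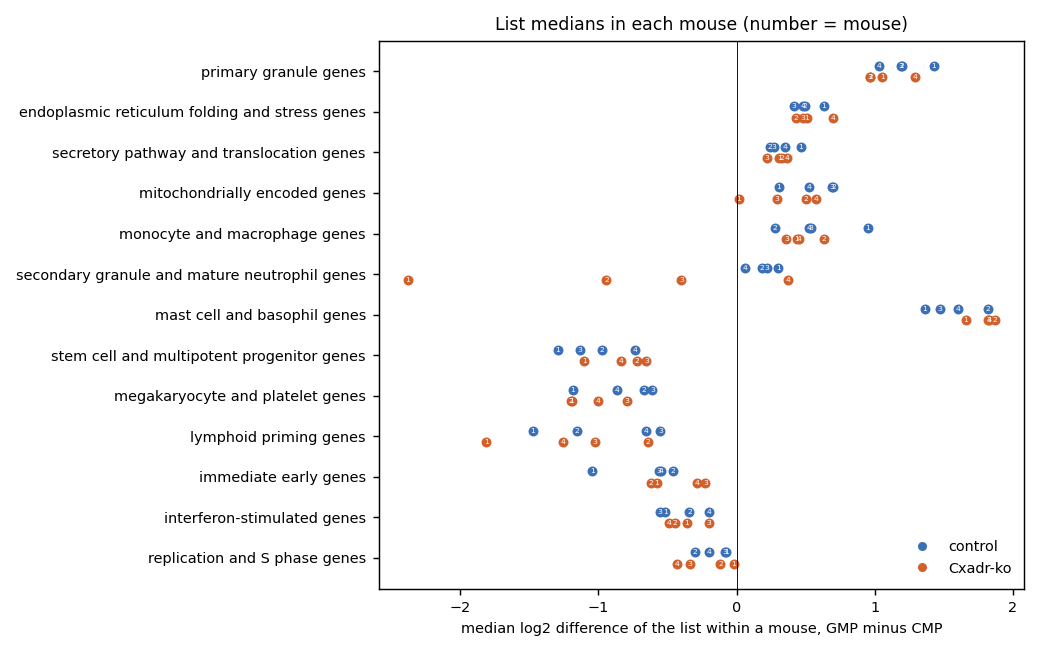
Median log2 difference GMP minus CMP of 13 gene lists within each mouse, with blue circles for control and orange circles for Cxadr-ko mice and the mouse number inside. Primary granule and endoplasmic reticulum medians lie above 0, and stem cell, lymphoid, immediate early and interferon medians below 0, in all 8 mice. The secondary granule list spans from -2.38 in Cxadr-ko mouse 1 to 0.37 in Cxadr-ko mouse 4, and mouse 1 of both genotypes has the smallest mitochondrial medians of its genotype.

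List medians had the same sign in both genotypes for most lists. In control and Cxadr-ko mice the primary granule median was 1.24 and 1.11, the endoplasmic reticulum median 0.53 in both, the stem cell median -1.17 and -0.93, the megakaryocyte median -0.98 and -1.11 and the interferon-stimulated median -0.38 and -0.40. Signs differed for the secondary granule list (0.21 and -0.66), whose CMP sum was 15433 to 124604 in Cxadr-ko and 4402 to 24095 in control mice, for dendritic cell genes (-0.29 and 0.03) and for heme synthesis (-0.12 and 0.13). Granulocyte-monocyte transcription factors (-0.18 and 0.18), growth factor receptors (-0.02 and 0.03), mitosis genes (-0.05 and 0.05) and exon junction complex genes (0.10 and -0.04) also had medians of unlike sign. Differences between list medians were not tested.

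Cxadr itself was at the lower end of the genes tested and did not pass the test between the gates. It stood at 18.6, 27.4, 17.2 and 30.7 normalized counts in the CMP and 33.4, 21.3, 38.4 and 11.99 in the GMP libraries of control mice 1 to 4, and at 38.7, 25.8, 14.2 and 39.5 and 12.4, 20.9, 18.0 and 17.6 in those of Cxadr-ko mice 1 to 4. The ranges of gates and genotypes overlapped (log2 difference -0.30 ± 0.33 (SE, n = 8), limma adjusted p = 0.58). Gene-level counts also take reads outside a floxed part, so these values do not check the genotype labels.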

How the data were processed

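Bone marrow cells were sorted into TRIzol and sequenced from NEBNext Single Cell/Low Input libraries, per the labels' protocols. The submitters' processing notes name STAR and DESeq2 with the build GRCm38 (mm10). Read counter and annotation release are not stated there. The deposited signal values are counts of reads per gene scaled by the authors with 1 size factor for each library, as the values show: 100% of 379779 values above 0 were whole multiples of 1 step within 0.001 reads. Whole reads were recovered from these steps for edgeR 4.0.16 and DESeq2 1.42.0. The 16 libraries held 8313300 to 12346005 reads, and precision was taken from the spread between mice.

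Genes at 10 or more in 4 or more of the 16 libraries were fitted on log2(value + 1) with limma 3.58.1 (R 4.3.3, trend, two-sided) and the mouse as a block, over 8 mice and within each genotype on the same genes, with Benjamini-Hochberg adjustment. The genotype difference was the gate by genotype term. Both gates came from the same animal, which pairs the libraries. The correlation of paired deviations from the group means was 0.36, 0.14, 0.11 and 0.095 in control and 0.22, 0.065, 0.052 and 0.041 in Cxadr-ko mice 1 to 4.

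The comparison and the 37 lists (808 genes, of which 1 symbol found no match) were chosen with earlier results of these data known, so list counts are descriptions. The rule for named genes took the 12 largest differences per direction (same sign in 8 mice, mean of at least 100), the 5 largest differences of mean per direction, up to 4 called members per list and direction and 2 not called, the gate markers, Cxadr and Cwc22, and the 5 genes of lowest p for the genotype difference. Which of these are printed was decided with their values in view, and Ctsg, Gata1, Gfi1b, Meis1 and Prtn3 fall outside it. Overlapping and near-identical genes cannot be told apart where the counting could share their reads, and strand use is not stated. The fits were also run on simulated counts with mouse effects but without a library that stands apart. That run does not show how the fits behave with the aberrant libraries seen here. Some results are not reported here.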

Additional observations from a re-analysis of the deposited data

Results flagged for a closer look

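In 9 named genes the log2 difference of 1 mouse stood apart from the other 7, the gap to its nearest neighbour, as a share of the whole range, exceeding Dixon's 95% critical value for 8 values, and chance alone marks about 1 in 20 genes. In Cxadr-ko mouse 4 these were Cnrip1 (-4.26), Ccl3 (-1.81) and Xcr1 (-1.68), and the GMP library of this mouse also stood apart on the second principal component. In Cxadr-ko mouse 3 they were Plac8 (0.49) and Padi4 (-0.037), both closer to 0 than in the other mice. Gzmb was lower in GMP in Cxadr-ko mouse 1 (-2.65) and higher in the other 7 mice. Gla had its smallest rise in Cxadr-ko mouse 2 (0.50), Csrp3 in control mouse 1 (1.36), and Cd200r3 its largest in control mouse 2 (5.89).

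Wrap73, a WD repeat protein, was lower in GMP in all 4 control mice and higher in all 4 Cxadr-ko mice, a genotype difference of 1.05 that did not pass the test (limma adjusted p = 0.956).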

How the results depend on the processing

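Of the 134 genes named with values, 130 kept their direction and side of the threshold without the replicate block. That setting gave 1361 higher and 1384 lower genes over 8 mice, 621 and 639 in control and 291 and 265 in Cxadr-ko mice. Leaving out 1 mouse gave 1265 to 1657 higher and 1378 to 1887 lower genes over all mice, 477 to 926 and 473 to 1052 in control mice, and 78 to 256 and 49 to 238 in Cxadr-ko mice. Without mouse 1 of both genotypes the counts were 940 and 991 over all mice, 477 and 473 in control and 78 and 49 in Cxadr-ko mice, with fewer samples by construction. With no filter on low values control mice gave 651 and 712. DESeq2 gave 600 and 706 in Cxadr-ko mice, and 1 higher and 1 lower gene for the genotype difference where limma called 0, and the cause was not tested. Without Cxadr-ko mice 2 and 4, chosen after seeing the data, Cxadr-ko mice gave 387 and 422. The direction turned for mt-Cytb under quantile normalization (-0.35) and for Wrap73, which was not called, without Cxadr-ko mice 2 and 4 (-0.10). The call of Jun, the call least stable among named genes beside Klf1, had an adjusted p of 0.55 without the block. Genes with few counts in 1 gate have the widest intervals.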
